A study of Mus musculus with 3 samples.

Results

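The cells described here are microglia of the mouse nucleus accumbens, 320 of the 10291 cells kept in the series (11625 cells were deposited). They were chosen by gates on raw UMI counts (1 UMI stands for 1 captured RNA molecule), and the gates used measured values of 12 genes. A cell was a member when it had at least 2 UMIs of the microglial genes P2ry12, Tmem119, Cx3cr1 and Siglech combined. It also had to hold at most 4 UMIs of the class II antigen presentation genes Cd74, H2-Aa, H2-Ab1 and H2-Eb1, at most 1 of the neuronal genes Snap25 and Syt1, and 0 of Mog (oligodendrocytes) and Aqp4 (astrocytes). These 12 genes selected the cells, so their levels are a description and were not tested. The series held 1 group of 3 samples: Thy1::ChR2 mice, in which the Thy1 promoter, active mainly in neurons, drives the light-gated channel channelrhodopsin, with FLiCRE labelling during light stimulation in the nucleus accumbens, dissected from a coronal piece of 400 um. FLiCRE is a reporter system that turns coincident light and calcium into transcription. There was no unstimulated or unlabelled group, all 3 samples share the channel, the reporter and the stimulation, and the animals' age, sex and number per sample are not given in the sources used here. Every comparison was therefore made between sets of cells inside the same 3 libraries, and nothing here separates an effect of the stimulation.

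Microglia are the resident macrophages of the brain parenchyma. They depend on signalling through the CSF1 receptor and on TGF-beta, which together maintain a characteristic set of genes such as P2ry12, Tmem119 and Sall1. They sense nucleotides through purine receptors, tag and engulf material through complement and receptors such as Trem2 and Mertk, and digest it in lysosomes. The word homeostatic is used for microglia that keep the characteristic set while genes of inflammation, antigen presentation and lipid-laden phagocytosis stay low.

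The 3 libraries are told apart by the suffix of the cell barcodes and are numbered 1 to 3 by it. Which replicate of the labels a suffix stands for is not stated, and nothing says that the samples came from separate animals, so p-values measure the spread between these libraries, which may be technical. The microglia numbered 80, 169 and 71 cells in libraries 1, 2 and 3, with medians of 1106.5, 937 and 1095 UMIs per cell and sums of 110308, 215830 and 116065 UMIs. Levels are given as CPM, the UMIs of a gene per 1000000 UMIs summed over the cells of a set in 1 library. The first comparison set, called MHC-II-high cells here, had at least 5 UMIs of the 4 class II genes and 0 of P2ry12 and Tmem119. It held 92, 128 and 21 cells with medians of 1181.5, 1485 and 1370 UMIs, and it was not pure. It had UMIs of all 12 listed dendritic cell markers, of all 12 listed monocyte markers and of all 4 measured B cell markers. The dendritic markers summed to 663, 722 and 1588 CPM by library, against 145, 264 and 448 in microglia. The monocyte markers summed to 11743, 6458 and 6562 CPM against 7298, 3183 and 2412. The B cell markers summed to 206, 43.7 and 16.2 CPM against 0, 23.2 and 43.1, so library 3 went the other way. The second set, called marker-negative cells, had 0 UMIs of the 4 microglial genes and was not MHC-II-high, and its 9110 cells are mostly neurons, glia and vascular cells. Barcode sequences shared between libraries numbered 13, 7 and 22 in the 3 pairs of libraries, and 1 of them belonged to a microglial cell.

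Promoter sequences of 4 genes that were higher in microglia than in MHC-II-high cells are shown because they hold motifs of factors known in macrophages. They were chosen after their values were seen. Each is the 200 bases before the start of the gene in RefSeq on build GRCm38.p6, written 5′ to 3′ on the strand of the gene. Capitals mark matches, on either strand, to a PU.1-type motif (GAGGAAG), an AP-1-type motif (TGANTCA) or an NF-kB-type motif (GGGA, any 2 bases, then TTCC). Trem2 lies at chr17:48346201-48346400, plus strand, Il1a at chr2:129309973-129310172, minus strand, C1qc at chr4:136892915-136893114, minus strand, and Nfkbia at chr12:55492648-55492847, minus strand.
Trem2: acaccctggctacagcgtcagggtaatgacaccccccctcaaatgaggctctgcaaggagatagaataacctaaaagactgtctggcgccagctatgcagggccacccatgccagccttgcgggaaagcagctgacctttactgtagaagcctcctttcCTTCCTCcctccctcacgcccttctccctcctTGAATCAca
Il1a: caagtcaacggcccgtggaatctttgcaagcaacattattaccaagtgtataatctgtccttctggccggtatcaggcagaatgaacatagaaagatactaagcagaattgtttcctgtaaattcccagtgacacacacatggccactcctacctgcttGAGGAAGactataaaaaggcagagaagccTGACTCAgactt
C1qc: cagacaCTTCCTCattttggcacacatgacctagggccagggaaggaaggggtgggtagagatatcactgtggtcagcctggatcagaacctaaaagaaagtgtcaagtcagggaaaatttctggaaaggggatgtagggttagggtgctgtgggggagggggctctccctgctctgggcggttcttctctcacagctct
Nfkbia: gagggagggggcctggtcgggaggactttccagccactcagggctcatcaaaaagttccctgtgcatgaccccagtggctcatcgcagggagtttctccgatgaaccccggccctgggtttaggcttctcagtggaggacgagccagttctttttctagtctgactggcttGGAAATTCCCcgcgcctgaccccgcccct
Trem2 and Il1a each held the PU.1-type motif from 41 to 35 bases before the start. An AP-1-type motif lay from 9 to 3 bases before the start of Trem2 and from 12 to 6 before that of Il1a. In C1qc the PU.1-type motif lay from 194 to 188 bases before the start, and in Nfkbia the NF-kB-type motif lay from 29 to 20 bases before it. The 3 motifs do not overlap in these stretches. In windows from 250 bases before to 50 after a start, the PU.1-type motif was present in 13.6% of all 32851 RefSeq windows, the AP-1-type motif in 7.81% and the NF-kB-type motif in 1.47%. Of the genes tested against MHC-II-high cells, 1364 of 1757 had a window, and 16.7% of these held the PU.1-type motif. The share was 25.8% (34 of 132) among genes higher in microglia and 12.5% (9 of 72) among genes lower in microglia, with 9.09% (12 of 132) and 13.9% (10 of 72) for the AP-1-type motif and 2.27% (3 of 132) and 2.78% (2 of 72) for the NF-kB-type motif, all given as a description with no test. A match is a run of letters and not a bound site.

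Microglia made up 3.33% ± 0.520 of kept cells (SD, n = 3 libraries), with 3.40% in library 1 (exact 95% binomial interval 2.71% to 4.22%), 2.78% in library 2 (2.38% to 3.22%) and 3.81% in library 3 (2.99% to 4.79%). These intervals cover counting error only. Of 484 kept cells with at least 2 UMIs of the 4 microglial genes, 79 were left out for class II UMIs, 67 for Snap25 or Syt1 and 44 for Mog or Aqp4, with some cells counted under several of these. Cx3cr1, the fractalkine receptor, had a UMI in 247 members, Tmem119, a membrane protein typical of microglia, in 229, P2ry12, an ADP receptor, in 162, and Siglech, a sialic acid-binding lectin, in 101. P2ry12 or Tmem119 was present in 273 members (85.3%), and 26 of the 47 members with neither came from library 1.

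The gate holds a range of cells. Csf1r, the receptor that microglia need to survive, stood at 540.0 ± 204 CPM (SD, n = 3 libraries) in the 150 cells just outside the gate with 1 microglial UMI. It stood at 701.5 ± 241 CPM in the 87 members with 2 UMIs, 886 ± 379 in the 62 with 3, and 1108 ± 216 in the 171 with 4 or more. C1qa, a chain of complement C1q, was at 2914 ± 1013 CPM just outside, 6603 ± 1667 and 6131 ± 1299 with 2 and 3 UMIs, and 8575 ± 157 with 4 or more. Lyz2, the lysozyme gene that is prominent in monocytes and many macrophages, was at 5782 ± 4299 CPM just outside, 5411 ± 4952 and 7138 ± 857 with 2 and 3 UMIs, and 2117 ± 549 with 4 or more. Members near the threshold thus had a lower mean of Csf1r and C1qa and a higher mean of Lyz2 than members far inside it, with overlapping libraries for Csf1r, C1qa and Lyz2 between members with 2 and with 4 or more UMIs, and their median depth was 840 UMIs (2 gate UMIs) against 1069 (4 or more). On the class II side, the 19 members with 3 or 4 UMIs had C1qa at 7184 ± 2967 CPM, and the 13 cells just outside with 5 or 6 had 10043 ± 2609. These means rest on 4, 14 and 1 cells and on 1, 9 and 3 cells by library, and the libraries with 1 cell gave 3767 CPM inside and 12600 CPM outside, so no difference is read from them.

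**Figure D1:**
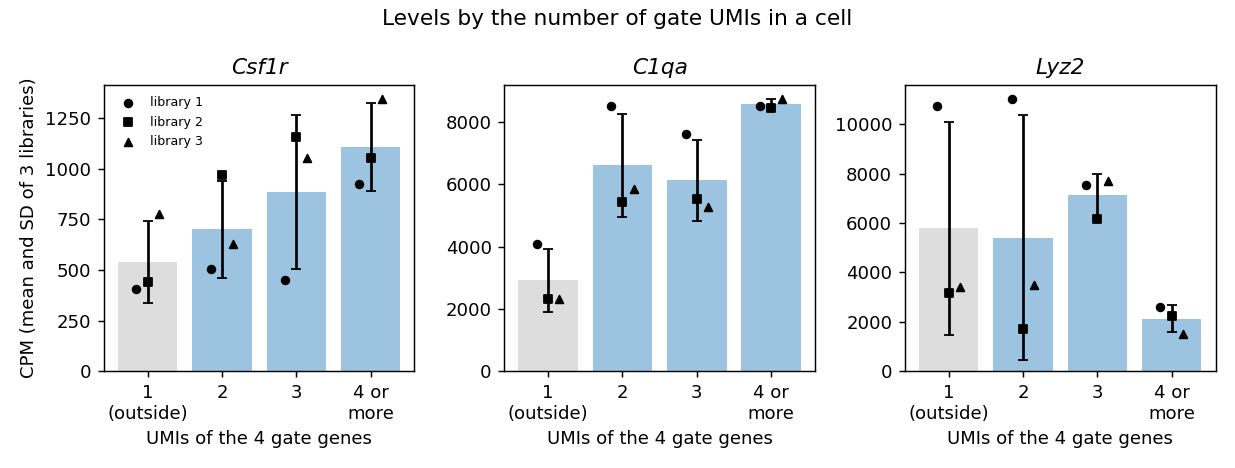
Levels of Csf1r, C1qa and Lyz2 (CPM, linear axes from 0) by the number of UMIs of P2ry12, Tmem119, Cx3cr1 and Siglech in a cell that met the other gates. Bars and error bars are the mean and SD of 3 libraries, symbols are the libraries, and the grey bar is outside the gate. Mean C1qa was lowest with 1 UMI (2914 CPM) and highest with 4 or more (8575 CPM), while Lyz2 was lowest with 4 or more (2117 CPM).

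The label was set beside genes the gate did not use. Of 25 listed microglial identity genes, 24 were higher in microglia than in marker-negative cells, and Jam2, a junction protein, did not pass (log2 fold change 0.67). Marker-negative cells were chosen to hold 0 UMIs of the microglial gate genes, so genes that go with these had to differ, and the count is a description and no test of the label. All 25 identity genes had UMIs in members, with sums of 11196, 15109 and 17232 CPM in libraries 1 to 3. Of 12 listed monocyte markers 8 had UMIs in members, with sums of 7298, 3183 and 2412 CPM, most of it Lyz2 (7071, 3049 and 2326 CPM), which microglia and macrophages can express too, and Ly6c2, Ccr2, Chil3 and Ifitm6 were at 0. Of 12 dendritic cell markers 8 had UMIs (145, 264 and 448 CPM), and Flt3, Zbtb46, Xcr1 and Cd209a were at 0. Of 6 neutrophil markers 1 had UMIs (9.07, 0 and 0 CPM), and S100a9, Retnlg, Cxcr2, Ngp and Camp were at 0. Border-associated macrophages, which line vessels and meninges, could fall inside the gate. All 12 of their listed markers had UMIs in members, with sums of 1115, 533 and 1258 CPM in libraries 1 to 3. MHC-II-high cells had 980, 608 and 616 CPM, lower than members in libraries 1 and 3 and higher in library 2. Of the members, 9 had 2 or more UMIs of Mrc1, Lyve1, Cd163, Pf4, Cbr2, Folr2 and F13a1 (6, 0 and 3 by library). Neuronal markers summed to 263, 1436 and 207 CPM, so library 2 was apart, with Meg3, a nuclear noncoding RNA, at 118, 366 and 25.8 CPM. Oligodendrocyte markers summed to 1641, 2409 and 3644 CPM, astrocyte markers to 1450, 978 and 620, and T and NK cell markers to 1106, 788 and 853, most of the last being Ccl5. Genes of chemokines, cytokines and disease-associated phagocytes were present in these cells too, as described further on, so they are called microglia here without the word homeostatic.

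The first comparison asked how gated microglia differ from MHC-II-high cells of the same tissue. Higher in microglia were all 18 tested identity genes, 12 of 16 phagocytic receptor genes, 11 of 21 lysosomal genes, the 3 C1q genes and 4 of 15 cytokine and chemokine genes (2 were lower). Lower were 3 of 6 class II accessory genes (1 was higher), 6 of 16 adhesion and motility genes (4 were higher) and 3 of 4 tested monocyte markers. Of 1757 genes tested outside the gate (edgeR quasi-likelihood test on sums per library with the library as block, Benjamini-Hochberg adjusted p under 0.05), 178 were higher in microglia (10.1%) and 89 lower (5.07%), and the median log2 fold change of all tested genes was -0.07. Without library 1 the count of calls was 0 (473 genes had an unadjusted p under 0.05), without library 2 it was 39 and without library 3 it was 170. Genes that vary across cells with the gate genes had to differ in part, so these p-values say how alike the difference was in the libraries. A purer comparison set (a UMI of a C1q gene or Lyz2, and none of listed lymphoid and dendritic genes) held 51, 94 and 11 cells by library. With it the count of calls was 145, of which 136 were among the 267. These were 112 higher and 33 lower, so the lower calls fell more than the higher ones.

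Of the 12 genes named by rule as highest relative to MHC-II-high cells, 11 are given here: Crybb1, Lag3, Plxdc2, Gpr34, Saa3, Olfml3, Cst7, Sall1, Csf3r, Pag1 and Fcrls. Fcrls, a scavenger receptor of the Fc receptor-like family, had 952, 1126 and 1224 CPM in libraries 1, 2 and 3 of microglia and 140.0, 60.5 and 48.6 in MHC-II-high cells. The lowest microglial value was over every MHC-II-high value, and the fitted log2 difference was 3.66 (SE 0.36, edgeR adjusted p = 1.57e-06). Olfml3, a secreted matrix protein, had 480.5, 922 and 948 CPM against 66.3, 37 and 32.4 and passed the test as well. Gpr34, a receptor for lysophosphatidylserine, had 209, 524 and 646 CPM against 14.7, 26.9 and 16.2. None of these 3 genes overlapped between the sets, and in all 3 library 1 had the smallest ratio. The genes of this paragraph were named for large differences with the same sign in 3 of 3 libraries. A lack of overlap follows largely from that choice and is a description. Crybb1, a crystallin known from the lens and from immature microglia, had 263, 338 and 534 CPM against 0, 10.1 and 0, the largest fitted value among these genes, with a log2 fold change of 5.64 (SE 0.58, edgeR adjusted p = 1.25e-06). Lag3, an inhibitory receptor that binds class II molecules, had 99.7, 375 and 499.7 CPM against 0, 13.4 and 0, so library 1 was far lower than libraries 2 and 3 in microglia while the sets still did not overlap. Crybb1 and Lag3 had 3 and 4 UMIs in all MHC-II-high cells together, so their fold changes rest on few molecules there.

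**Figure D2:**
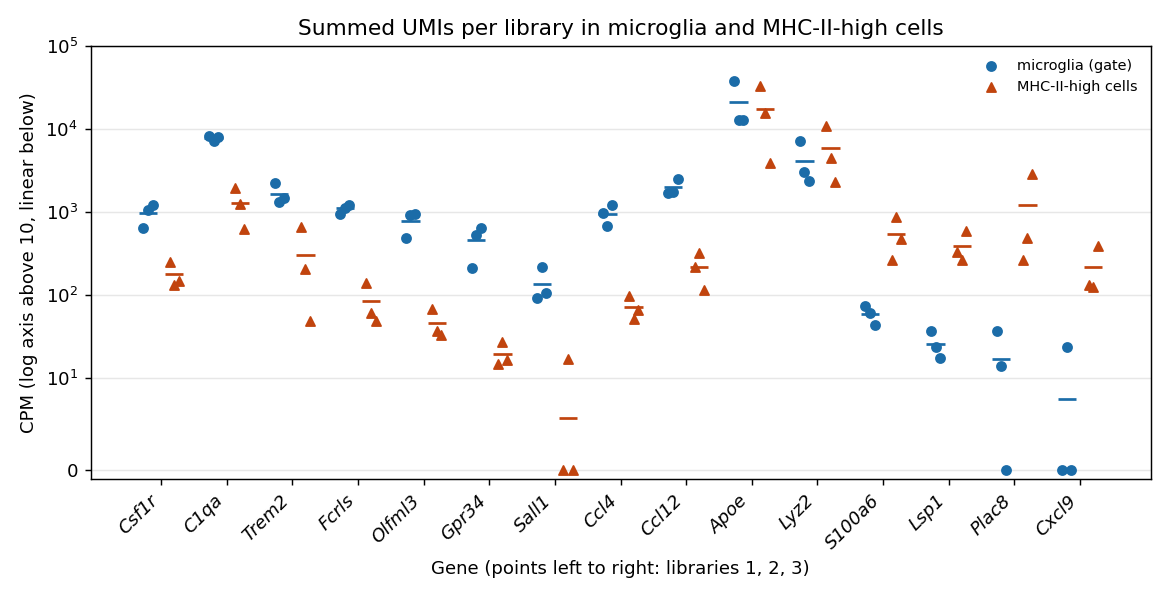
CPM of 15 genes in microglia (circles) and MHC-II-high cells (triangles), with libraries 1, 2 and 3 from left to right and a line at each mean; the axis is logarithmic above 10 CPM and linear below. Csf1r, Olfml3 and Sall1 lay higher in all 3 libraries of microglia and S100a6, Lsp1 and Plac8 lower, while Apoe and Lyz2 overlapped and were highest in library 1 of both sets.

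Of the 25 identity genes, 18 passed the filter on low counts and were tested, and all 18 were higher in microglia (median log2 fold change 2.76 against -0.07 for all tested genes). A gene that passes the filter mainly through the set where it is high has to differ, so this count is no support for the label, and the same holds for the counts of the other lists, which share some genes. The 7 that were not tested included Slc2a5, a fructose transporter, with 9.07, 116 and 60.3 CPM in microglia and 0 UMIs in MHC-II-high cells (at least 12.3-fold higher over the floor of 3 UMIs over the set). Among 24 listed transcription factors 16 were tested, 6 were higher and 0 lower. Sall1, a zinc-finger repressor that holds microglial identity, had 90.7, 213 and 103 CPM against 0, 16.8 and 0, with a log2 fold change of 3.94 (SE 0.61, edgeR adjusted p = 9.95e-05). Maf, a leucine zipper factor of macrophages, had 236, 278 and 465 CPM against 44.2, 63.8 and 146, with no overlap and a log2 fold change of 1.99 (SE 0.36, edgeR adjusted p = 5.98e-04). Mef2c, Zeb2 and Mef2a were higher by 1.55, 1.07 and 1.02 on the log2 scale. DESeq2 did not call Zeb2 or Mef2a (adjusted p = 0.19 and 0.51). Maf was not past the threshold without library 1 or library 2 (edgeR adjusted p = 0.13 and 0.08). This is not particular to Maf, as the whole comparison had 0 calls without library 1 and 39 without library 2. Spi1, which encodes the myeloid factor PU.1, had 245, 352 and 534 CPM against 287, 289 and 486 and Irf8, another myeloid factor, 435, 542 and 646 against 324, 528 and 1134. Both overlapped between the sets, and neither passed the test (log2 fold changes 0.04 and -0.18).

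Receptors through which microglia are maintained and sense their surroundings were compared next. In the list of 11 CSF1 receptor and growth factor receptor genes, 6 were tested, 4 were higher and 0 lower. Csf1r had 644, 1061 and 1198 CPM against 250.5, 131 and 146, with no overlap and a log2 fold change of 2.38 (SE 0.35, edgeR adjusted p = 1.51e-04). Csf3r, the receptor for G-CSF, had 90.7, 144 and 129 CPM against 7.37, 10.1 and 0 (log2 fold change 3.81). The adaptors Tyrobp and Fcer1g, which carry signals of Trem2 and Fc receptors, were higher by 1.10 and 1.13. The receptors for GM-CSF, Csf2ra and Csf2rb, had log2 fold changes of -0.03 and -0.54 and did not pass. Flt3, a receptor of dendritic cells, had 0 UMIs in microglia and 14 in MHC-II-high cells (at least 4.17-fold lower over the same floor). Of 18 TGF-beta pathway genes 8 were tested and 3 were higher: Tgfbr1 (1.81) and Tgfbr2 (2.14), the receptor subunits, and Itgb5 (2.57), an integrin subunit. Tgfb1, the ligand, had 227, 129.7 and 121 CPM against 81, 101 and 243 and did not pass. Of 15 purine receptor and ectoenzyme genes 3 were tested, and P2ry6, a UDP receptor linked to phagocytosis, was higher (99.7, 292 and 491 CPM against 81, 90.7 and 81, log2 fold change 1.52). P2ry13, a relative of P2ry12, had 54.4, 195 and 276 CPM against 7.37, 10.1 and 0 and was not tested in this comparison.

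The 3 chains of C1q, which opens the classical complement cascade, stood at 7828 ± 549 CPM for C1qa, 8081 ± 295 CPM for C1qb and 6148 ± 303 CPM for C1qc in microglia (SD, n = 3 libraries). In MHC-II-high cells C1qa had 1938, 1233 and 616 CPM, below all 3 microglial values of 8286, 7219 and 7978, and the log2 fold change came to 2.66 (SE 0.28, edgeR adjusted p = 8.00e-06). The spread of the C1q genes between libraries was small in microglia and larger in MHC-II-high cells. Of 19 listed complement genes 7 were tested, 5 were higher and 1 lower. The others that were higher were C3ar1 (1.17), the C3a receptor, and Itgb2 (1.23), the beta chain of complement receptor 3, and these calls were lost under 11 and 9 of 18 alternatives. Cfp, which encodes properdin and stabilises the alternative pathway, was lower with 18.1, 4.63 and 43.1 CPM against 103, 94.1 and 162 (log2 fold change -2.71). C3 itself had 0 UMIs in microglia and 29 in MHC-II-high cells (at least 8.63-fold lower over the floor).

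Of 22 Fc and phagocytic receptor genes 16 were tested, 12 were higher and 0 lower. Trem2, a lipid-sensing receptor of microglia, had 2221, 1311 and 1448 CPM against 656, 205 and 48.6, with no overlap and a log2 fold change of 2.56 (SE 0.40, edgeR adjusted p = 0.002). Its level was highest in library 1 of both sets. Mertk, a kinase that recognises dying cells, had 99.7, 120.5 and 249.9 CPM against 14.7, 13.4 and 0 (3.34 on the log2 scale), and Gas6, its bridging ligand, was higher by 1.97. Fcgr3, Fcgr1, Fcgr2b and Fcgr4, receptors for IgG, were higher by 2.62, 1.45, 1.24 and 1.10, and the last pair lost the call under 11 and 12 of 18 alternatives. Axl, a relative of Mertk, had 145, 83.4 and 43.1 CPM against 110.5, 63.8 and 146 and did not pass (log2 fold change -0.10).

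Of 23 lysosomal genes 21 were tested, 11 were higher and 0 lower, with a median log2 fold change of 1.37. Ctsd, the protease cathepsin D, had 12021, 10050.0 and 6531 CPM in microglia and 2357, 1435 and 308 in MHC-II-high cells, with no overlap and a log2 fold change of 2.97 (SE 0.34, edgeR adjusted p = 3.56e-04). Lgmn, the asparaginyl protease legumain, had 1976, 3512 and 3016 CPM against 567, 642 and 227 (2.47). Ctsb, Ctsz, Ctsa, Hexa, Grn and Laptm5 were higher by 1.40, 1.82, 1.85, 1.28, 1.57 and 1.39. Cst3, the secreted protease inhibitor cystatin C, had 15284, 15679 and 12614 CPM against 5945, 10540.0 and 18277 and did not pass. Psap, which encodes activators of lipid hydrolysis, had 2674, 2382 and 1490.5 CPM against 2880.5, 2023 and 2560.0 and did not pass either.

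Genes known from disease-associated phagocytes were mixed. Of 27 listed genes 22 were tested, 8 were higher and 1 lower. Cst7, which encodes the cathepsin inhibitor cystatin F, had 317, 334 and 164 CPM against 22.1, 20.2 and 0, with a log2 fold change of 3.99 (SE 0.46, edgeR adjusted p = 4.75e-06). Cd9 and Timp2, a tetraspanin and a metalloprotease inhibitor, were higher by 1.59 and 2.10. Lgals3, the lectin galectin 3, was lower (log2 fold change -1.32), with 979, 241 and 155 CPM against 1164, 931 and 599.5, values that overlap because library 1 of microglia stood apart. Apoe, the main lipid carrier of the brain, had 37731, 12857 and 12726 CPM in microglia and 32577, 15654 and 3889 in MHC-II-high cells and did not pass (log2 fold change 0.47). Spp1, the secreted protein osteopontin, had 1496, 1056 and 534 CPM against 1238, 1734 and 16.2 and did not pass, and 10 cells held 87.7% of its 455 UMIs in microglia. Of 21 lipid-handling genes 12 were tested and 3 were higher: Ltc4s (3.61), a leukotriene synthase, Ptgs1 (3.58), the constitutive cyclooxygenase, and Lrp1 (1.78), a scavenger receptor for lipoproteins.

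**Figure D3:**
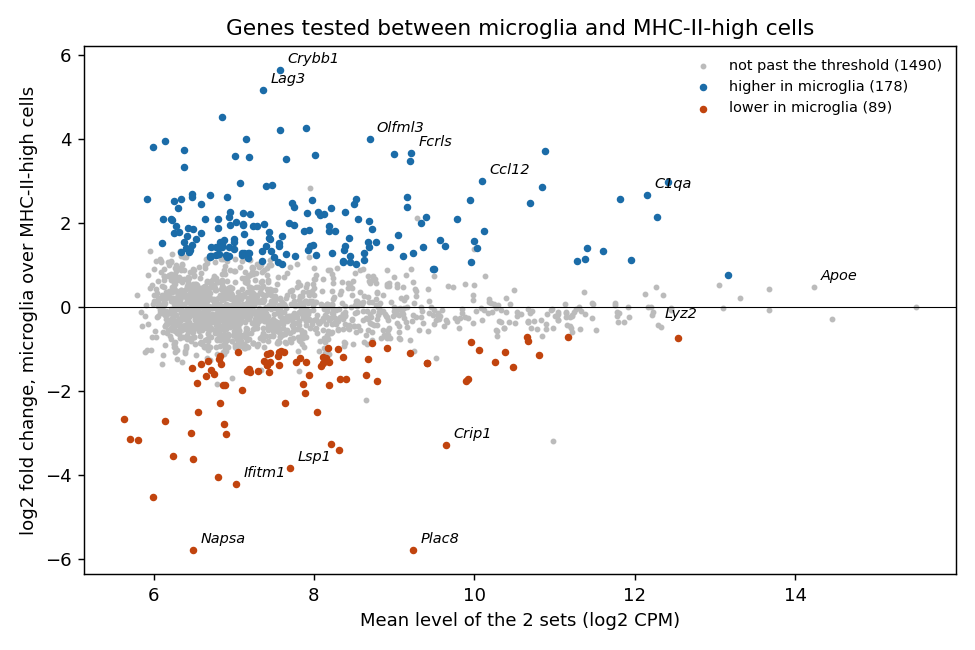
The 1757 genes tested between microglia and MHC-II-high cells, by mean level (log2 CPM) and log2 fold change, with 178 genes higher in microglia in blue, 89 lower in red and the others grey. C1qa combines a high level with a large difference, while Apoe lies near 0.

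Chemokine and cytokine genes split. Of 27 listed genes 15 were tested, 4 were higher in microglia and 2 lower. Ccl12, a monocyte chemoattractant, had 1686, 1724 and 2516 CPM in microglia and 214, 316 and 113 in MHC-II-high cells, with no overlap, and passed the test (edgeR adjusted p = 8.76e-06). Ccl4, an inflammatory chemokine, had 979, 676 and 1198 CPM against 95.8, 50.4 and 64.8, with a log2 fold change of 3.63 (SE 0.34, edgeR adjusted p = 1.25e-06), and its neighbour Ccl3 had 335, 269 and 181 against 29.5, 10.1 and 48.6 (3.56). Il1a, the cytokine whose promoter is shown above, had 118, 148 and 146 CPM against 0, 43.7 and 0 (log2 fold change 2.53). All 4 genes were higher in each of the 3 libraries. The lower genes were Cxcl9, an interferon-gamma-induced chemokine, with 0, 23.2 and 0 CPM against 133, 124 and 389 (-4.04), and Cxcl16 (-0.98), whose call was lost under 14 of 18 alternatives. Tnf had 99.7, 78.8 and 224 CPM against 7.37, 3.36 and 0 and was not tested here. Il1b had 281, 83.4 and 129 CPM against 162, 359.5 and 664 and Ccl2 99.7, 208 and 276 against 36.8, 450.2 and 16.2, and both overlapped and did not pass.

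A sum over cells does not say how many cells carry a gene, so shares of cells with a UMI were counted after each cell was thinned to 500 UMIs, which left out 12 microglia below that depth. C1qa had a UMI in 88.4% of thinned microglia (mean of 3 libraries, 94.8% before thinning), in 30.6% of MHC-II-high cells and in 2.73% of neurons, and Csf1r in 43.4%, 9.27% and 0.507%. Ccl12 was found in 37.3% (32.9%, 42.6% and 36.4% by library), against 9.46% in MHC-II-high cells and 0.556% in neurons. Ccl4 was found in 16.5% (26.0%, 8.28% and 15.2%), Il1a in 5.88%, Tnf in 4.64% and Saa3 in 5.22%. The shares of Ccl4 in neurons and oligodendrocytes were 0.234% and 0%, so its share in microglia was above the share in those cells. The cytokine genes differed in how far their RNA was concentrated in few cells. The 10 highest microglia carried 59.0% of the 393 Ccl4 UMIs, 70.4% of the 54 Tnf UMIs, 62.9% of the 62 Il1a UMIs and 79.6% of the 162 Saa3 UMIs, against 34.9% of the 850 Ccl12 UMIs (158 cells), 41.6% of the 380 Ccl5 UMIs (108 cells), 17.7% of the 3398 C1qa UMIs and 14.4% of the 439 Csf1r UMIs. Both Ccl3 and Ccl4 had a UMI in 27 microglia, Ccl4 without Ccl3 in 27 and Ccl3 without Ccl4 in 18. Saa3, an acute-phase apolipoprotein, had 517, 394 and 172 CPM against 44.2, 13.4 and 0, and its 162 UMIs lay in 27 cells (10, 11 and 6 by library), with 50 in 1 cell.

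**Figure D4:**
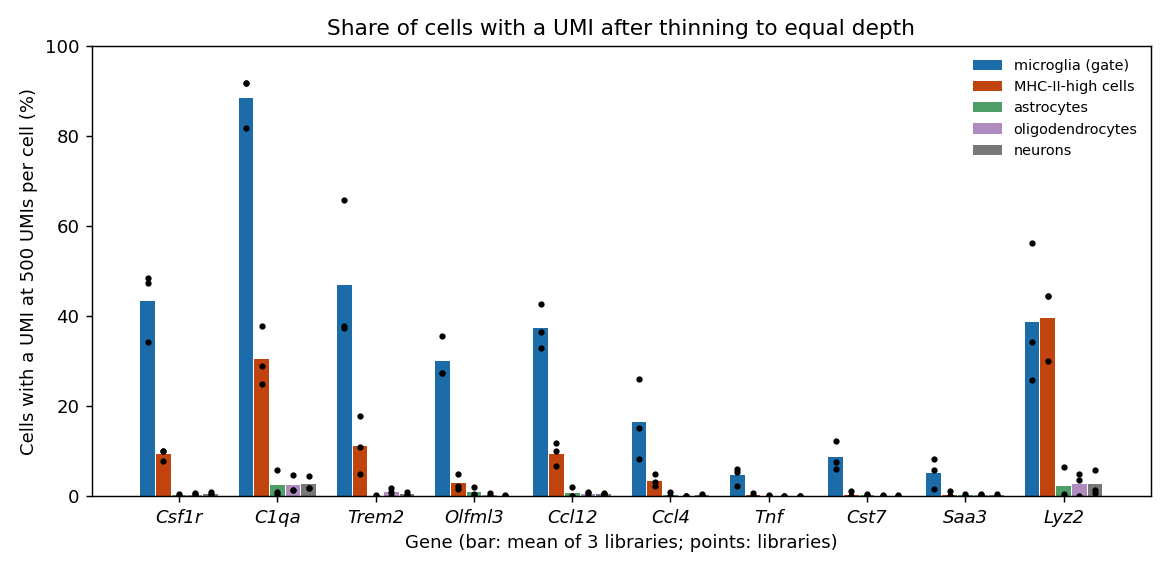
Percent of cells with at least 1 UMI of 10 genes after thinning every cell to 500 UMIs (bars are means of 3 libraries, points are libraries, linear axis from 0), in microglia, MHC-II-high cells, astrocytes, oligodendrocytes and neurons. C1qa was found in most microglia (88.4%), Csf1r in 43.4%, Ccl4 in a minority (16.5%), and Lyz2 in about as many MHC-II-high cells as microglia (39.7% and 38.7%).

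Genes of antigen presentation and of the interferon response were counted by list, beside 10.1% higher and 5.07% lower over all tested genes. Of 14 class II accessory genes outside the gate 6 were tested, 3 were lower and 1 was higher. H2-Oa, a modulator of peptide loading, had 18.1, 13.9 and 0 CPM against 133, 84 and 292, with a log2 fold change of -3.61 (SE 0.62, edgeR adjusted p = 3.59e-04), and the peptide exchange subunits H2-DMa and H2-DMb1 were lower too, with log2 fold changes of -1.77 and -1.86. Since the comparison cells were selected on class II genes, this direction is close to the rule itself. The gene that was higher is Ctss, the protease cathepsin S (4741, 5972 and 5635 CPM against 3448, 2305 and 1718). Of 17 class I genes 12 were tested, 0 were higher and 2 were lower, the immunoproteasome subunits Psmb8 (-1.09) and Psmb9 (-1.30), whose calls were lost under 7 and 11 of 18 alternatives. B2m, the invariant class I chain, had 6980.5, 4744 and 5729.5 CPM against 4774, 3642 and 5476 and did not pass. Of 30 interferon-stimulated genes 14 were tested and 1 was lower, Ifitm3, a restriction factor for viral entry (653, 755 and 1198 CPM against 1098, 1663 and 2657, log2 fold change -1.07). Isg15, a ubiquitin-like interferon target, had 236, 292 and 293 CPM against 147, 279 and 551. None of the 6 tested chemokine and cytokine receptor genes of 20 passed. Ccr2, the monocyte chemokine receptor, had 0 UMIs in microglia and 92 in MHC-II-high cells (at least 27.4-fold lower over the floor).

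Immediate early genes, which respond quickly to stimuli and also to tissue dissociation, had UMIs in both sets. Of 22 listed genes 14 were tested, 2 were higher and 0 lower, beside 10.1% higher and 5.07% lower over all tested genes. The count is close to these shares, so no difference of the list is read from it. Jun, an AP-1 subunit, had 335, 379.9 and 809.9 CPM against 147, 208 and 211, with a log2 fold change of 1.21 (SE 0.32, edgeR adjusted p = 0.012). Nfkbia, the NF-kB inhibitor whose promoter is shown above, had 580.2, 408 and 1292 CPM against 279.9, 212 and 178, with a log2 fold change of 1.43 (SE 0.35, edgeR adjusted p = 0.0094), and library 3 of microglia was far over the others. Fos had 970.0, 477 and 948 CPM against 317, 407 and 437 and did not pass. Of 13 heat shock genes 8 were tested and 1 was lower, the chaperone Hspa8 (-0.70, lost under 13 alternatives). Hspa1a, an inducible chaperone, ran from 154 to 1378 CPM over the microglial libraries. The part of dissociation in these levels was not tested.

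Of 27 adhesion and motility genes 16 were tested, 4 were higher and 6 lower. Lsp1, an actin-binding protein of leukocytes, had 36.3, 23.2 and 17.2 CPM against 332, 259 and 583, with a log2 fold change of -3.84 (SE 0.44, edgeR adjusted p = 5.20e-06). S100a6 and S100a11, small calcium-binding proteins, had 72.5, 60.2 and 43.1 CPM against 265, 864 and 469.9 and 63.5, 64.9 and 34.5 against 354, 645 and 745, with log2 fold changes of -3.26 and -3.41. None of these 3 overlapped, which follows largely from their choice, as they are among the genes named by rule for large differences. S100a10, the filament protein Vim and the actin regulator Pfn1 were lower, with log2 fold changes of -1.64, -2.49 and -0.81. The higher genes were the integrin subunits Itgb5 and Itgb2, Selplg (2.13), a selectin ligand, and Icam1 (1.47). Of 20 ion channel and transporter genes 6 were tested and 3 were higher: Slco2b1 (2.66), an organic anion transporter, Slc29a3 (2.56), a lysosomal nucleoside transporter, and Hvcn1 (2.06), the proton channel. Of 12 proliferation genes 1 was tested and did not pass. The genes summed to 218, 357 and 103 CPM in microglia, and any of them had a UMI in 8.73% of thinned microglia (15.9% before thinning). The thinned share was 17.5% in MHC-II-high cells, 18.2% in neurons, 16.1% in astrocytes and 64.0% in oligodendrocytes. Mki67 alone was found in 0.0151% of thinned neurons and 0.181% of thinned oligodendrocytes. The share over the list is therefore not read as a share of dividing cells. Mki67 had 0 UMIs in 320 microglia, which allows a share of cells with a UMI of up to 0.938% (3 counts, counting error only), and Top2a had 9.07, 60.2 and 0 CPM.

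**Figure D5:**
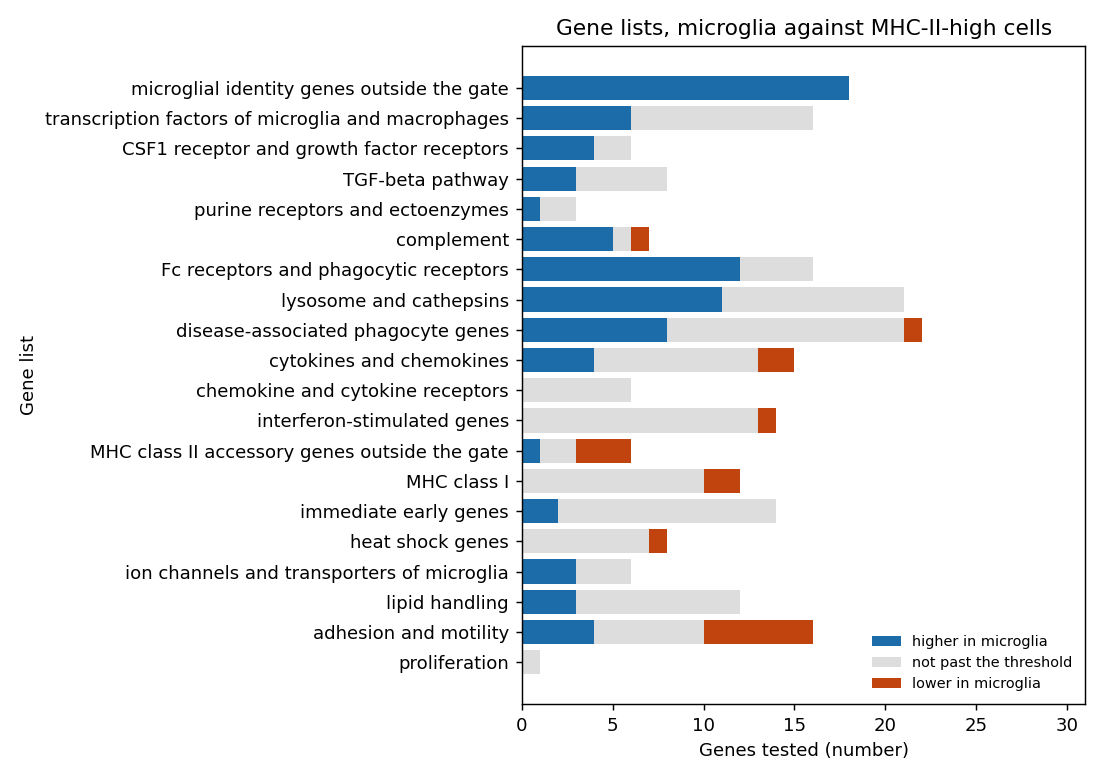
Number of tested genes in each list that were higher in microglia (blue), not past the threshold (grey) or lower (red) against MHC-II-high cells. Higher genes make up all 18 tested identity genes, 12 of 16 phagocytic receptor genes and 11 of 21 lysosomal genes, while adhesion and motility holds 6 lower genes.

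The 12 genes named by rule as lowest in microglia were Plac8, Napsa, Cytip, Ifitm1, Cxcl9, Lsp1, H2-Oa, Cbfa2t3, S100a11, Crip1, S100a6 and Spint2. They come from the 89 lower genes of the main comparison, and with the purer comparison set 33 genes were lower. Plac8, a cysteine-rich protein of monocytes and other leukocytes, had 36.3, 13.9 and 0 CPM in microglia and 265, 487 and 2819 in MHC-II-high cells, where library 3 with its 21 cells was far over the rest. The sets did not overlap, and the log2 fold change came to -5.78 (SE 0.98, edgeR adjusted p = 0.0084). Crip1, a LIM domain protein, had 263, 134 and 51.7 CPM against 2033, 860.2 and 1458 (-3.29). Ifitm1, an interferon-inducible membrane protein, had 9.07, 18.5 and 8.62 CPM against 279.9, 272 and 194, close values within each set, and differed by -4.22 (SE 0.47, edgeR adjusted p = 3.67e-06). Napsa, the aspartic protease napsin A, had 1 UMI in all microglia and 71 in MHC-II-high cells. Among listed markers of other cells, Meg3 and Penk of neurons, Cldn5 of endothelium and Ms4a4c of monocytes were lower, with log2 fold changes of -1.32, -1.32, -1.30 and -1.81, while Trf, which oligodendrocytes express, was higher by 1.13. Members were limited in Snap25, Syt1, Mog and Aqp4, and MHC-II-high cells were not. Lower neuronal markers in members thus follow in part from the gates and are a description. The neuronal markers summed to 965, 2843 and 162 CPM in MHC-II-high cells, so the order between the sets differed by library. The part of neuronal RNA in these calls was not tested.

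Against marker-negative cells, microglia differed in many genes. Of 10918 genes tested (edgeR, adjusted p under 0.05), 1622 were higher in microglia (14.9%) and 1699 lower (15.6%), with a median log2 fold change of -0.25 over all tested genes. Without TMM scaling the median was -0.73 and the split 1196 higher and 2932 lower, so the balance of directions depends on the scaling, and all 3321 calls kept their sign in that setting. Without library 2 the count of calls was 0 (3029 genes had an unadjusted p under 0.05), without library 1 it was 1174 and without library 3 it was 548.

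The genes named by rule as highest over marker-negative cells were Gpr34, Adora3, Tnf, Slc2a5, Cryba4, RP23-81F19.2, P2ry13, Cd180, Susd3, Ly86, Cxcl2 and Crybb1. Gpr34 had 209, 524 and 646 CPM in microglia and 1.21, 2.61 and 2.05 in marker-negative cells, with a log2 fold change of 8.28 (SE 0.36, edgeR adjusted p = 2.49e-06). Ly86, a cofactor of the Toll-like receptor relative Cd180, had 1577, 1575 and 1120.1 CPM against 21, 13.7 and 5.31 and a log2 fold change of 7.41 (SE 0.34, edgeR adjusted p = 2.49e-06), and Cd180 itself had 209, 222 and 293 against 3.63, 1.96 and 0.856. Adora3, an adenosine receptor, had 27.2, 102 and 103 CPM against 0.806, 0.508 and 0.171, and P2ry13 had 54.4, 195 and 276 against 0.806, 1.67 and 1.37. Tnf, the inflammatory cytokine, had 99.7, 78.8 and 224 CPM against 0.806, 0.799 and 0.342, with a log2 fold change of 7.90 (SE 0.56, edgeR adjusted p = 9.78e-06). Cxcl2, a neutrophil chemoattractant, had 181, 9.27 and 215 CPM against 0.403, 0.799 and 0.685, so library 2 was low, and 10 cells held 91.5% of its 47 UMIs. In each of these genes the lowest microglial library was over the highest marker-negative one. They were named for the largest differences with the same sign in 3 of 3 libraries, so this separation follows largely from the choice.

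By list, all 23 lysosomal genes and all 17 class I genes were higher than in marker-negative cells, as were 18 of 20 tested Fc and phagocytic receptor genes, 21 of 23 cytokine and chemokine genes, 20 of 23 transcription factors, 21 of 25 disease-associated phagocyte genes and 12 of 15 chemokine and cytokine receptor genes. These shares stand against 14.9% of all tested genes. Marker-negative cells were selected to lack the microglial gate genes, so genes that go with these had to differ, and the shares are a description. Smaller shares of other lists passed: 17 of 28 interferon-stimulated genes, 15 of 21 immediate early genes, 11 of 22 adhesion genes, 7 of 17 TGF-beta genes and 4 of 13 heat shock genes were higher. Spi1 and Irf8, which did not pass against MHC-II-high cells, differed here by 6.06 and 5.54, and Apoe by 2.52. Among markers of other cells, 10 of 11 tested neuronal, 9 of 10 astrocytic and 8 of 8 oligodendrocytic genes were lower, and 6 of 6 border macrophage genes were higher. Members were limited in gate genes of neurons, astrocytes and oligodendrocytes, and marker-negative cells, which include these cell types, were not. The lower direction of these markers thus follows largely from the gates and is a description.

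Within the gate, members with 1 to 4 class II UMIs were compared with members with 0, to see whether traces of class II mark other differences. The 103 members with class II UMIs (21, 66 and 16 by library) held more UMIs, with a median of 1361 in library 1, 1055 in library 2 and 1256 in library 3, against 1057, 875 and 1004. Of 1153 genes tested (edgeR) 3 were higher (0.260%), 0 lower, and 60 had an unadjusted p under 0.05. Ccl4 had 1232, 995 and 2407 CPM in members with class II UMIs and 877, 399 and 762 in those without, higher in each library, with a log2 fold change of 1.15 (SE 0.22, edgeR adjusted p = 0.02). Nfkbia had 1011, 537 and 2407 CPM against 407, 295 and 891, with a log2 fold change of 1.19 (SE 0.23, edgeR adjusted p = 0.02). The 2 sets overlapped across libraries for Nfkbia, and for Ccl4 each value with class II was over all values without.
For Nfkbia and Ccl4 the highest cell held 24 of 74 and 32 of 100 UMIs of its set and library, and without it the levels were 1958 and 690 CPM beside 891 and 399 CPM. With cells matched on UMIs, 1 gene passed, and the log2 fold change was 0.70 for Ccl4 and 1.67 for Nfkbia, neither past the threshold. DESeq2 called 0 genes (14 with an unadjusted p under 0.05). None of the 21 identity genes, 21 lysosomal genes and 10 interferon-stimulated genes tested passed.

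The libraries differed among themselves, and library 1 stood apart for several genes of macrophages. Apoe was about as high in library 1 of microglia as in that of MHC-II-high cells and lower in libraries 2 and 3. In neurons it stood at 522, 1246 and 266 CPM, and in astrocytes, which make it, at 23254, 21725 and 10531 CPM. Lyz2 had 7071, 3049 and 2326 CPM in microglia and 10793, 4418 and 2285 in MHC-II-high cells, highest in library 1 of both, against 47.0, 168 and 7.81 CPM in neurons. In library 1, members with P2ry12 or Tmem119 had Apoe at 27554 CPM and Lyz2 at 4347 CPM, and members with neither had 62289 and 13646 CPM. In libraries 2 and 3, members with P2ry12 or Tmem119 had Apoe at 12838 and 13125 CPM and Lyz2 at 3122 and 2381 CPM. Members with neither, 16 and 5 cells there, had Apoe at 13099 and 1279 CPM and Lyz2 at 2131 and 767 CPM. Library 1 was thus highest in both parts of the members. Plin2, a lipid droplet coat protein, had 553, 125 and 94.8 CPM and Lgals3 979, 241 and 155 CPM, also highest in library 1. P2ry13, Gpr34, Lag3 and Slc2a5 were lowest in library 1. With members required to hold P2ry12 or Tmem119, the first comparison called 233 genes, 225 of them among the 267.

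Features of the FLiCRE constructs (mCherry, TEV and tTA) were counted as well. In members, mCherry had 10 UMIs, TEV 12 and tTA 9, each in as many cells, and members with 2 UMIs of 1 feature numbered 0. After thinning to 500 UMIs, the shares of microglia with a UMI were 1.10% for mCherry, 1.69% for TEV and 0.197% for tTA. Oligodendrocytes gave 0.894%, 1.24% and 0.605%, and neurons 3.35%, 14.3% and 8.04%. Before thinning, the shares in microglia were 2.24%, 2.91% and 2.59%, at lower depth than neurons. In library 1 the construct features had 0 UMIs in microglia. Astrocytes gave 1.71%, 1.53% and 1.02%. The thinned shares of microglia rest on 4, 7 and 1 cells. They lay above those of oligodendrocytes for mCherry and TEV and below for tTA. Whether any of this RNA was above background was not tested, and counts this small cannot tell.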

How the data were processed

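Single cells of 3 samples were measured with the 10x 3′ kit, version 2. The authors deposited whole-number UMI counts for 28001 features (27998 Ensembl genes and 3 construct features) in 11625 cells. The submitters' processing notes name Cell Ranger 3.0 and build mm10. How the authors filtered cells before deposit is not given in the sources used here. The members and gene lists were chosen with earlier results of these data known.

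A cell was kept when it had 300 or more genes and a mitochondrial share of UMIs of 20% or less. Counts were summed per library and set of cells and tested with edgeR 4.0.16 (R 4.3.3), using glmQLFit with robust estimation and glmQLFTest. Low counts were filtered with filterByExpr, libraries were scaled by TMM, a term for the library was in the model, and p-values were adjusted by Benjamini-Hochberg over all genes tested in a comparison. The library was a block because both sums of a pair come from the same library. The 12 gate genes entered library sizes and were not tested. Named genes are the 12 largest log2 fold changes in each direction (only higher ones against marker-negative cells, up to 5 between members) with adjusted p under 0.05, the same sign in 3 of 3 libraries and a mean of at least 50 CPM in the higher set. Members of fixed lists are named beside their list's count, and other genes named were chosen after their values were seen. Doublets were scored with Scrublet in scanpy 1.11.5 and left in. The steps were tested on simulated data. The simulated libraries did not differ among themselves in gene proportions, so differences between libraries like those described here were not covered. Alternatives included DESeq2 1.42.0, other filters, scalings and gates, and leaving out each library. Of the listed genes, Itgam, Clec7a, Mx2, Ifi207, Pclaf, Trac, Trbc2, Igkc and Ighm are not analysed here. Summed UMIs per library ranged from 110308 to 215830 in microglia, which limits the precision of genes with few UMIs. Results for a few genes are not reported here.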

Additional observations from a re-analysis of the deposited data

How the results depend on the processing

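Between microglia and MHC-II-high cells the count of called genes was 267. It was 151 with DESeq2, 147 with no filter on low counts, 145 with the purer MHC-II-high set, and 0 to 170 when 1 library was left out. Without the replicate block by library it was 135. Every called gene that could be tested kept its sign under all 18 alternatives, and over the single genes of this comparison 1280 values kept the call and 383 lost it. The calls lost most often were Cxcl16 (14 alternatives), Penk and Hspa8 (13 each), Fcgr4 (12), C3ar1, Cldn5, Fcgr2b and Psmb9 (11 each), Mef2a and Trf (10 each), Itgb2 and Zeb2 (9 each) and Jun, Lgals3 and Pfn1 (8 each). Against marker-negative cells the count was 3321 and ranged from 0 to 1174 when 1 library was left out. The blocked and unblocked fits differed little there (3431 without the replicate block). Between members with and without class II UMIs the count was 3. It was 0 with DESeq2 (14 genes with an unadjusted p under 0.05), 0 with no filter (288), 0 without the replicate block (20), 0 in cells with at least 1000 UMIs (31), 0 with at least 4 gate UMIs (47), 0 with no Snap25 or Syt1 UMI (48) and 0 with P2ry12 or Tmem119 required (41). It was 1 with edgeR's default prior and 1 with cells matched on UMIs, and it ranged from 0 to 10 when 1 library was left out. The causes were not tested. The share of microglia was 3.33% and became 2.57% among cells with at least 1000 UMIs, 3.97% with at most 10% mitochondrial UMIs, 1.79% with at least 4 gate UMIs and 2.79% with P2ry12 or Tmem119 required. The gate with P2ry12 or Tmem119, the gate with 0 class II UMIs and the removal of shared barcodes were chosen after seeing the data. Depth limits genes with few UMIs, and library 3 held 21 MHC-II-high cells.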
